A study of Oryza sativa with 4 samples.

Results

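The genes described here belong to plant families that loosen the growing cell wall or build its matrix: the α-expansins (EXPA), β-expansins (EXPB), expansin-like A genes (EXLA), a xyloglucan endotransglucosylase/hydrolase (XTH), pectin methylesterase inhibitors (PMEI), brittle culm 1-like genes (BC1L) and the cellulose synthase-like families CSLA, CSLC, CSLD, CSLE, CSLF and CSLH. Members were chosen by symbol or synonym in a reference gene table, and where several probe sets measure a gene, the one of highest mean signal over the arrays stands for it. This gave 55 genes on 64 probe sets, of 17905 genes that the array annotation ties to at least 1 probe set of their own. The reference gene table held 81 genes with such names. The study compared panicle primordia, the young flowering shoots of rice, of the Indica cultivars Pusa 1266 and Pusa Basmati 1 at a stage the labels number 0, on 4 Affymetrix arrays with 2 biological replications per cultivar. The characteristic field gives Pusa 1266 a high and Pusa Basmati 1 a low grain number per panicle, while the titles say low for both, so the groups are called by cultivar. No treatment, growth condition, plant age or number of pooled plants is given in the sources used here.

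Growing plant cells are held by cellulose microfibrils set in a matrix of xyloglucan, mannans, pectin and, in grasses, mixed-linkage glucan. Expansins let the wall yield without cutting its polymers, XTH enzymes cut and rejoin xyloglucan, and PMEI proteins block the enzymes that demethylate pectin. Many, though not all, cellulose synthase-like enzymes make matrix polysaccharides in the Golgi, whereas BC1L proteins are related to COBRA, a membrane-anchored protein of cellulose deposition.

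All values are deposited signals, a linear brightness per probe set, or log2 differences (Pusa 1266 minus Pusa Basmati 1) of log2(signal + 16) after quantile normalization, which brings the arrays to 1 distribution. The added 16 understates the change of dim genes. The medians of the deposited signals were 6.8 and 7.8 for Pusa 1266, against 11.5 and 11.3 for Pusa Basmati 1, and trimmed means were 78.0 and 89.1 for Pusa 1266, against 138 and 155 for Pusa Basmati 1. With the deposited scaling left as it was, the median difference of 15180 tested genes was −0.62, against 0.07 after quantile normalization and 0.07 with arrays scaled to 1 trimmed mean. The direction of a small difference therefore rests on the scaling. Signals of different probe sets are not comparable as levels, and in tissue RNA fewer cells of a type and less RNA per cell cannot be told apart. For all 5 control transcripts, both Pusa 1266 arrays had a higher ratio of 3′ to 5′ signal, which reflects RNA integrity, than either Pusa Basmati 1 array. The means differed by 1.24 to 3.25 times. Markers of the panicle primordium had summed signals of 6776 and 7435 in the Pusa 1266 arrays, against 6993 and 7513 in the Pusa Basmati 1 arrays, over 8 of 9 planned genes, with MADS15 and OSH1 the brightest. Of the 7 tested, 4 were higher and 1 lower in Pusa 1266, by the brightest probe set of each, beside 34.7% and 26.3% of all tested genes. RFL was 6.13-fold and LAX1 2.96-fold higher in Pusa 1266, and OSH1 was higher at 0.72. MADS34 was lower, at −0.83, and LOG did not pass, at −0.10. The brightest probe set of MADS14 did not pass, at −0.12, while its 3 others were lower at −0.93, −1.96 and −1.45. MADS15 passed as higher at 0.15, and the mean over its probe sets was 0.016. With the deposited scaling RFL and LAX1 stayed higher at 1.88 and 0.77, while OSH1 stood at 0.12 and MADS15 at −0.35. The median of the primordium list, 0.15, became −0.35 under that scaling. FZP, of the same marker list and not tested, had signals of 0.7 to 5.5. Floral organ markers, planned as those of a later stage, were bright. Over 7 genes they summed to 2564 and 2820 in Pusa 1266, against 3866 and 4403 in Pusa Basmati 1. Of these 3 were higher and none lower, and their median of 0.27 became −0.50 with the deposited scaling. The summed signals of CAB2R and RBCS, the 2 photosynthesis markers matched of 6 planned, were 816 and 805 in Pusa 1266, against 2780 and 3256 in Pusa Basmati 1, and both were lower by the test. The 3 secondary wall cellulose synthase markers summed to 83.7 and 75.9 in Pusa 1266, against 107 and 175 in Pusa Basmati 1, with CESA9 at 1.0 to 9.1. Of the 2 tested, CESA7 was lower at −0.996 and CESA4 higher at 0.47, or −0.27 with the deposited scaling. The other probe set of CESA4 did not pass, at −0.23, and the mean over both was 0.12 (adjusted p = 0.425). The part of RNA integrity and of tissue makeup in the results below was not tested. Whether the probes match the transcripts of both cultivars equally well was not tested either.

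Calls went both ways, in shares near those of all tested genes. EXPB, EXLA, PMEI, BC1L and CSLC each held called members on both sides. PMEI28 (3.72 on the log2 scale), EXPB7 (2.07), CSLC2 (1.55) and XTH8 (1.37) were higher in Pusa 1266. BC1L9 (−3.53), EXLA2 (−2.09), CSLF6 (−1.996), PMEI8 (−1.68), CSLC7 (−1.54), BC1L6 (−1.42) and CSLC1 (−1.06) were lower. In each of these 11 genes both Pusa 1266 signals lay on 1 side of both Pusa Basmati 1 signals, before and after normalization. Their choice by call and size favours this, and 81.9% of all tested genes did not overlap after normalization. With the deposited scaling the 4 higher genes stood at 3.06, 1.28, 0.85 and 0.60 in the order given, and the 7 lower ones between −4.27 and −1.87. The α-expansins were too dim to be tested or lay between −0.42 and 0.13.

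Of the 55 genes, 39 were brighter than the array median on 2 or more arrays and were tested in limma. The other 16 had signals between 0.1 and 10.9. At an adjusted p of 0.05, 12 of the 39 (30.8%) were higher in Pusa 1266 and 12 (30.8%) lower, against 34.7% and 26.3% of all tested genes, so these shares were near the background. The counts per family below cover few genes each and stand beside the same shares. At 2-fold or more 4 (10.3%) were higher and 7 (17.9%) lower, against 5.53% and 7.34% of all tested genes, which is a description of these genes with no test of the list. After normalization the cultivars did not overlap in 29 of the 39 (74.4%), against 81.9% of all tested genes. The median of the 39 was −0.02, and 11 of them (28.2%) turned sign with the deposited scaling, against 43% of all tested genes. Of the 24 calls, 5 turned with the deposited scaling and none with trimmed mean scaling. Wherever a gene below turned sign with the deposited scaling, that value is given beside it.

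**Figure D1:**
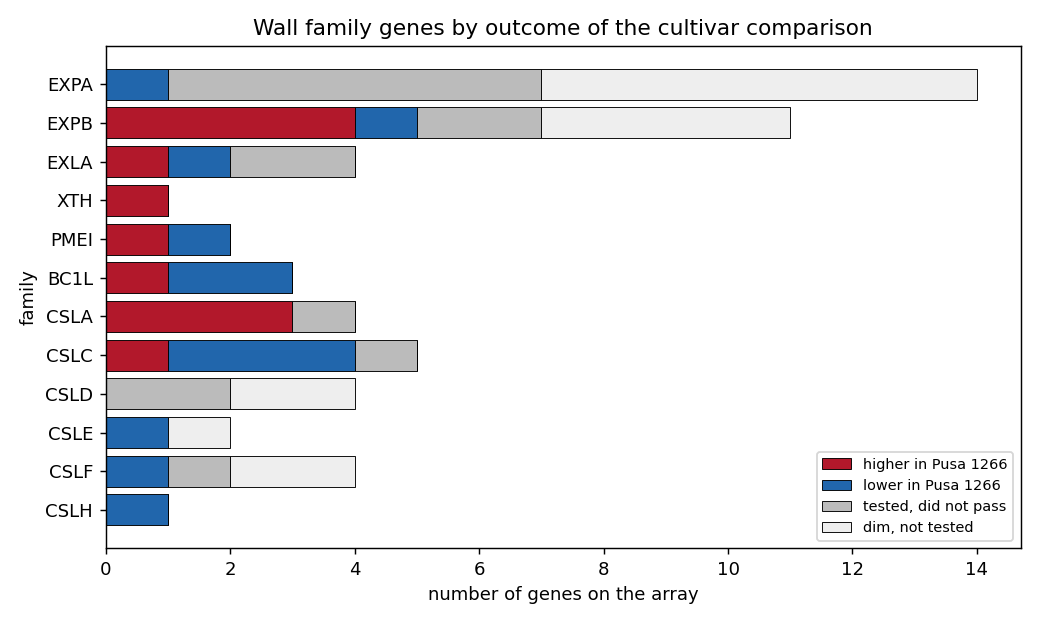
Number of genes on the array per family (horizontal axis), divided into those called higher in Pusa 1266, called lower, tested without passing an adjusted p of 0.05, and too dim to be tested. The CSLA bar holds 3 higher and no lower genes, the EXPA bar 1 lower and no higher gene of 14, and the EXPB bar 4 higher and 1 lower gene of 11. Among all tested genes 34.7% were higher and 26.3% lower.

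Expansins of the α type, the proteins of acid-induced wall extension, were represented by 14 genes, of which 7 were tested. None passed as higher and 1 as lower, and the median of the 7 was −0.06. EXPA7 (LOC4334606, chromosome 3) had signals of 1391 and 1514 in Pusa 1266, against 2112 and 2694 in Pusa Basmati 1. Its deposited signals did not overlap, but after normalization they did, at −0.06 ± 0.06 (SE, n = 2 per cultivar, as in all values that follow; adjusted p = 0.478, 95% confidence interval −0.20 to 0.09). Both of its other probe sets stayed at signals of 0.5 to 5.3.

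EXPA5 (LOC4330706, chromosome 2) had signals of 908 and 982 in Pusa 1266, against 1625 and 1906 in Pusa Basmati 1. It was the α-expansin that passed, at −0.17 ± 0.05 (adjusted p = 0.0254). The call was lost without either Pusa 1266 replicate (adjusted p = 0.0677 without replicate 1 and 0.126 without replicate 2), without Pusa Basmati 1 replicate 2 (0.0664) and with trimmed mean scaling, where the value was −0.09. EXPA10 (LOC4336776, chromosome 4), known in rice as induced by aluminium, stood at 0.04 ± 0.07, with signals of 322 and 388 in Pusa 1266, against 568 and 657 in Pusa Basmati 1, and at −0.76 with the deposited scaling. Its interval ran from −0.11 to 0.19, which leaves out a change of 2-fold.

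The remaining tested α-expansins lay between −0.42 and 0.13. EXPA2 had signals of 30.6 and 24.6 in Pusa 1266, against 75.6 and 75.1 in Pusa Basmati 1. It stood at −0.42 ± 0.17 and did not pass (adjusted p = 0.0632), but it passed without Pusa 1266 replicate 1 (−0.61, adjusted p = 0.0150) and with trimmed mean scaling (−0.48, 0.0353). EXPA16, EXPA29 and EXPA6 stood at 0.13, 0.02 and −0.13 without passing, and EXPA16 and EXPA29 at −0.70 and −0.82 with the deposited scaling. All 7 tested α-expansins were below the median of all genes under that scaling (−0.62). They were also below it with arrays centred on their medians (−0.38). With quantile normalization or trimmed mean scaling not all of them were. EXPA16 lay above the all-gene median of 0.07 after quantile normalization. With trimmed mean scaling EXPA7 and EXPA16 stood at 0.090 and 0.074, above an all-gene median of 0.068. The 7 not tested were EXPA1, EXPA3, EXPA4, EXPA8, EXPA26, EXPA31 and EXPA32, whose signals ran from 0.1 to 10.3. EXPA4, known from the growing internodes of deepwater rice, was among them, at 0.4 and 1.7 in Pusa 1266, against 0.9 and 3.4 in Pusa Basmati 1.

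Among the β-expansins, a class enlarged in grasses that also holds the major pollen allergens, 7 of 11 genes were tested. Of these 4 rose and 1 fell, beside 34.7% of all tested genes higher and 26.3% lower, with a family median of 0.36. EXPB7 (LOC4331300, chromosome 3) had signals of 668 and 695 in Pusa 1266, against 249.9 and 293 in Pusa Basmati 1. It was 4.21-fold higher in Pusa 1266 (95% confidence interval 3.75 to 4.73; 2.07 ± 0.07 on the log2 scale, adjusted p = 3.45e-07). The cultivars did not overlap in either the deposited or the normalized values, and the difference was 1.28 with the deposited scaling.

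EXPB8 (LOC4331298) is the protein-coding gene next to EXPB7 in the reference annotation of Japonica rice (assembly ASM3414082v1). It also passed as higher, at 0.63 ± 0.17, but its signals of 20.5 and 18.3 in Pusa 1266, against 13.7 and 14.5 in Pusa Basmati 1, lay near the added constant. Its size accordingly ran from 0.27 with a pseudocount of 64 to 1.14 with a pseudocount of 1. The call was lost without Pusa 1266 replicate 1 (0.51, adjusted p = 0.0621), without Pusa Basmati 1 replicate 1 (0.61, 0.0782) or replicate 2 (0.65, 0.0651) and with the deposited scaling (0.23). EXPB10, further along the same chromosome, was not tested, with signals of 0.4 to 5.6.

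On chromosome 10, EXPB6, EXPB2, EXPB3 and EXPB4 follow each other as consecutive protein-coding genes in that annotation. They did not move together. EXPB4 (LOC4349350), whose probe set is of the kind that matches several transcripts, had signals of 994 and 1204 in Pusa 1266, against 1293 and 1566 in Pusa Basmati 1, and rose by 0.36 ± 0.06 after normalization (adjusted p = 0.00171), with −0.37 under the deposited scaling. EXPB3 had signals of 138 and 146 in Pusa 1266, against 275 and 262 in Pusa Basmati 1, and stood at −0.01 ± 0.10 (95% confidence interval −0.25 to 0.23). EXPB6 fell by 0.51 ± 0.16, with signals of 11.8 and 11.3 in Pusa 1266, against 32.7 and 42.7 in Pusa Basmati 1, so its size varied with the pseudocount (−0.86 with 1 and −0.23 with 64). Its call was lost without Pusa 1266 replicate 2 (−0.45, adjusted p = 0.0773) and without Pusa Basmati 1 replicate 1 (−0.59, 0.0826) or replicate 2 (−0.43, 0.188). EXPB2, within the same run of genes, was not tested (1.4 to 5.4).

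Together with EXPB11, the genes EXPB3, EXPB4 and EXPB6 are known from deepwater rice, where gibberellin raises their transcripts in the internode. EXPB11 (LOC4330213, chromosome 2) passed at 0.51 ± 0.14, although its deposited signals overlapped, at 30.4 and 33.1 in Pusa 1266, against 33.1 and 34.7 in Pusa Basmati 1. It stood at −0.06 with the deposited scaling and lost the call without Pusa Basmati 1 replicate 1 (0.53, adjusted p = 0.0748) or replicate 2 (0.49, 0.0921). EXPB17 (LOC4336479, chromosome 4) stood at 0.02 ± 0.08 with signals of 529.5 and 521 in Pusa 1266, against 847 and 938 in Pusa Basmati 1, and at −0.75 with the deposited scaling. Its other probe set stayed at 2.7 to 7.8. The 4 β-expansins not tested, EXPB2, EXPB9, EXPB10 and EXPB18, had signals of 0.2 to 10.9.

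The EXLA genes encode expansin-like proteins whose wall activity is not established. All 4 were tested, 1 rose and 1 fell, and the median was 0.04. EXLA2 (LOC4349265, chromosome 10) had signals of 66.2 and 87.3 in Pusa 1266, against 646 and 673 in Pusa Basmati 1, and was 4.24-fold lower in Pusa 1266 (95% confidence interval 3.68 to 4.90; adjusted p = 9.65e-07). Both Pusa 1266 arrays lay far below both Pusa Basmati 1 arrays. Its other probe set, of the kind designed to match 1 transcript, gave −2.10 ± 0.10, against −2.09 ± 0.09 for the first, whose kind may cross-hybridize.

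EXLA4 (LOC4342109, chromosome 6) went the other way, at 0.93 ± 0.15 (adjusted p = 0.00140). Its signals were 46.9 and 43.2 in Pusa 1266, against 33.4 and 31.6 in Pusa Basmati 1, without overlap. The value was 0.33 with the deposited scaling, where it did not pass (adjusted p = 0.124), 1.28 with pseudocount 1 and 0.51 with pseudocount 64. EXLA3 (LOC4343213, chromosome 7) and EXLA1 (LOC4331516, chromosome 3) did not pass, at 0.23 ± 0.09 and −0.15 ± 0.14. Signals of EXLA3 were 111 and 129 in Pusa 1266, against 177 and 203 in Pusa Basmati 1, and those of EXLA1 were 56.0 and 49.6 in Pusa 1266, against 98.2 and 127 in Pusa Basmati 1. With the deposited scaling EXLA3 stood at −0.60.

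**Figure D2:**
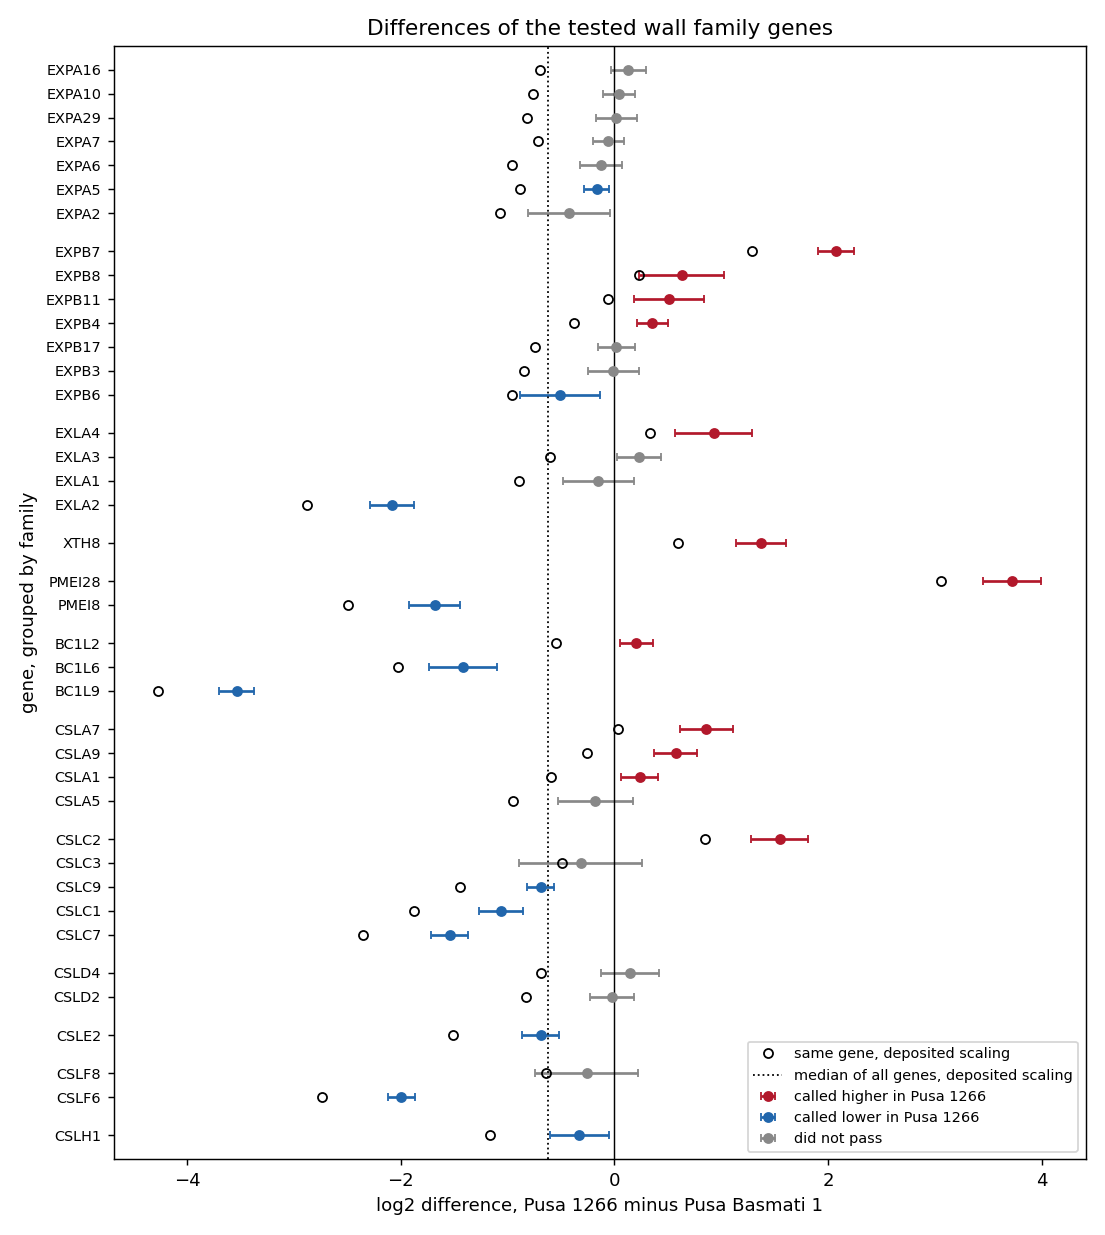
Log2 difference (horizontal axis) of the 39 tested genes, grouped by family down the page. Filled points are quantile normalized values with 95% confidence intervals from limma, coloured by call, open points the same genes with the deposited scaling, and the dotted line at −0.62 is the median of all tested genes under that scaling. PMEI28 lies furthest to the right at 3.72 and BC1L9 furthest to the left at −3.53, while the EXPA points lie between −0.42 and 0.13.

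XTH8 (LOC4345019, chromosome 8) was the single XTH gene on the array under that name. In rice it is known as a gene raised by gibberellin. Its signals were 137 and 175 in Pusa 1266, against 94.6 and 99.2 in Pusa Basmati 1, with no overlap. It was 2.59-fold higher in Pusa 1266 (95% confidence interval 2.21 to 3.04; adjusted p = 1.63e-05). With the deposited scaling the log2 difference of 1.37 became 0.60 and still passed (adjusted p = 0.00210).

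The 2 PMEI genes moved in opposite directions. PMEI28 (LOC4344463, chromosome 8), known in rice for dwarfed plants when overexpressed, had signals of 460.4 and 454 in Pusa 1266, against 44.4 and 37.5 in Pusa Basmati 1. It was 13.2-fold higher in Pusa 1266 (95% confidence interval 10.9 to 15.9; adjusted p = 2.07e-07), and the difference of 3.72 became 4.26 with pseudocount 1 and 2.81 with pseudocount 64. PMEI8 (LOC4329573, chromosome 2) had signals of 117 and 113 in Pusa 1266, against 714 and 725 in Pusa Basmati 1. It was 3.21-fold lower in Pusa 1266 (95% confidence interval 2.73 to 3.78; adjusted p = 5.87e-06). Each replicate lay close to its partner, and neither gene had another probe set.

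Of the BC1L genes 2 of 3 fell and 1 rose, beside 26.3% of all tested genes lower and 34.7% higher. BC1L9 (LOC4349011, chromosome 10) had signals of 101 and 107 in Pusa 1266, against 2127 and 2491 in Pusa Basmati 1. It was 11.6-fold lower in Pusa 1266 (95% confidence interval 10.3 to 13.0; adjusted p = 2.85e-08). Its other probe set, with signals of 5.5 and 18.8 in Pusa 1266, against 664 and 673 in Pusa Basmati 1, stood at −4.09 ± 0.22.

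BC1L6 (LOC4343844, chromosome 7) had signals of 17.2 and 15.7 in Pusa 1266, against 109.5 and 124 in Pusa Basmati 1. It stood at −1.42 ± 0.14 (adjusted p = 7.94e-05), and because the Pusa 1266 signals were near the added constant the value ran from −1.92 with pseudocount 1 to −0.80 with pseudocount 64. BC1L2 (LOC4333115, chromosome 3) had signals of 766 and 866 in Pusa 1266, against 1060 and 1346 in Pusa Basmati 1. It passed at 0.21 ± 0.07 after normalization and stood at −0.54 with the deposited scaling. The BC1L2 call was lost without Pusa 1266 replicate 1 (0.21, adjusted p = 0.0991) or replicate 2 (0.20, 0.109) and without Pusa Basmati 1 replicate 1 (0.12, 0.144). Its neighbour in the annotation, BC1, the COBRA-like gene of secondary wall strength after which the family is named, was too dim to be tested, with signals of 1.9 to 8.5.

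**Figure D3:**
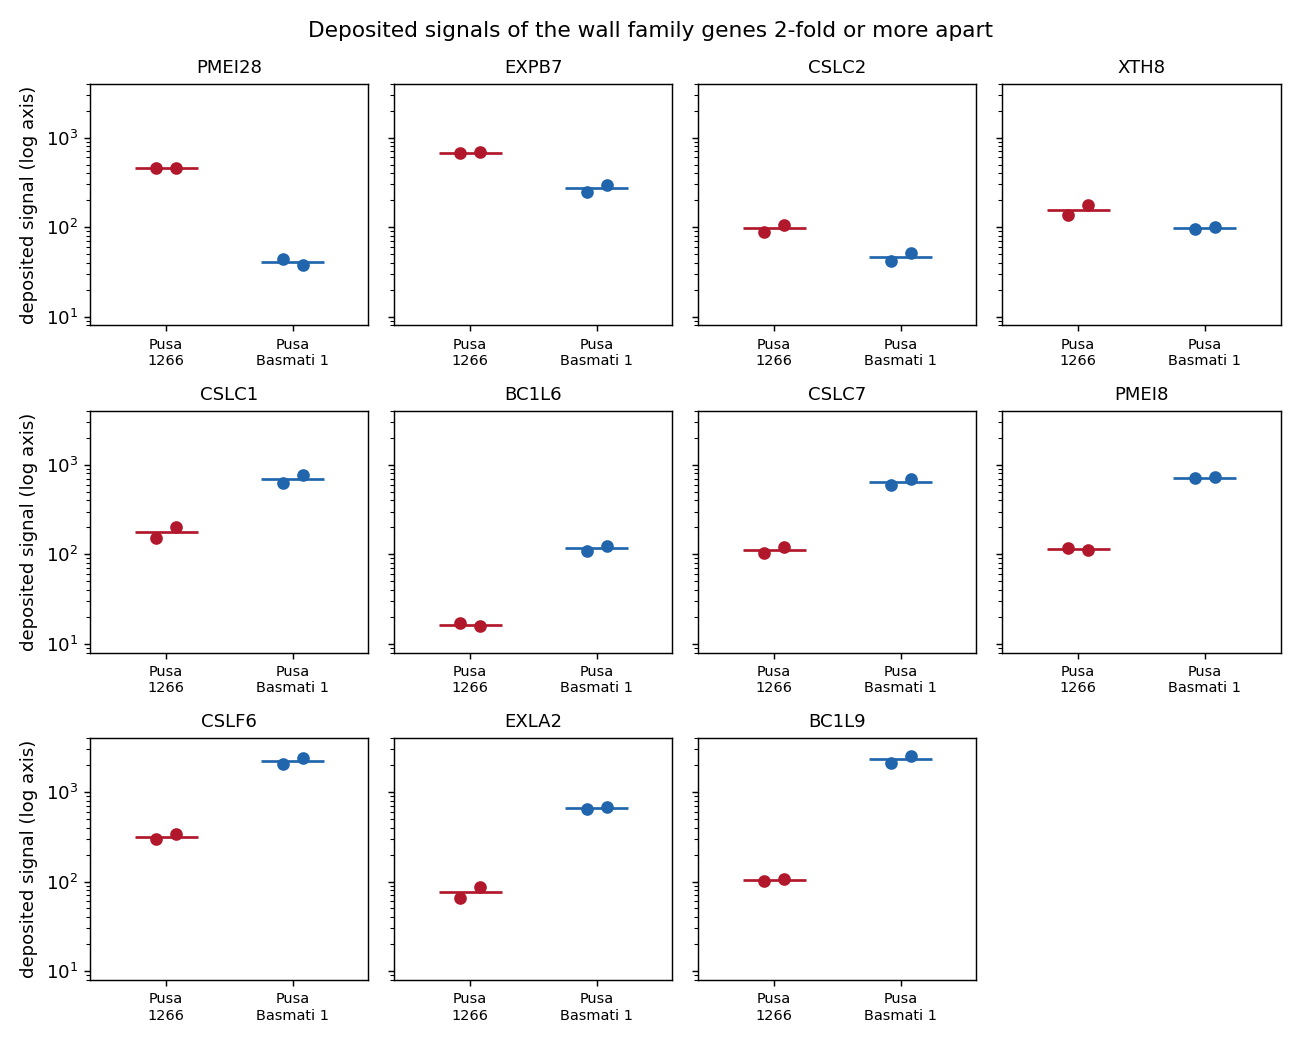
Deposited signal (log axis) of the 11 genes called at 2-fold or more, with 1 point per array, a bar at the mean of each cultivar, and Pusa 1266 at the left of each panel. Panels run by difference, with PMEI28, EXPB7, CSLC2 and XTH8 higher in Pusa 1266 and the other 7 lower. In none of them do the cultivars overlap, which the choice of genes by call and size favours.

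Members of the CSLA family make the backbone of mannans and glucomannans. Of 4 tested genes 3 rose and none fell, beside 34.7% of all tested genes higher and 26.3% lower. The median of the 4 was 0.40, which became −0.43 with the deposited scaling. CSLA7 (LOC4343994, chromosome 7) had overlapping signals of 213 and 202 in Pusa 1266, against 198 and 206 in Pusa Basmati 1. Brought to 1 distribution it stood at 0.86 ± 0.11 (adjusted p = 2.89e-04), and with the deposited scaling at 0.03. CSLA9 (LOC4341571, chromosome 6) had signals of 242.5 and 264 in Pusa 1266, against 308 and 304 in Pusa Basmati 1, and stood at 0.57 ± 0.09, or −0.26 with the deposited scaling. Both lay above the median of all genes under either scaling.

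CSLA1 (LOC4328585, chromosome 2), to which the gene table also gives the name CSLA9, had signals of 213 and 266 in Pusa 1266, against 348 and 388 in Pusa Basmati 1. It passed at 0.24 ± 0.08 and stood at −0.59 with the deposited scaling. Its call was lost without Pusa 1266 replicate 2 (0.18, adjusted p = 0.130), without Pusa Basmati 1 replicate 1 (0.24, 0.0974) or replicate 2 (0.23, 0.103) and with trimmed mean scaling (0.17, 0.0941). CSLA5 (LOC4332966, chromosome 3) did not pass, at −0.18 ± 0.15, with signals of 50.9 and 79.0 in Pusa 1266, against 145 and 131 in Pusa Basmati 1. With the deposited scaling 1 of the 4 CSLA genes stayed above 0.

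The CSLC family, whose Arabidopsis members make the glucan backbone of xyloglucan, had 1 gene higher and 3 lower of 5 tested, with a median of −0.69. Among all tested genes 34.7% were higher and 26.3% lower. CSLC2 (LOC4347118, chromosome 9) had signals of 87.5 and 107 in Pusa 1266, against 42.2 and 51.5 in Pusa Basmati 1. It was 2.92-fold higher in Pusa 1266 (95% confidence interval 2.42 to 3.51; adjusted p = 1.85e-05), with a log2 difference of 0.85 under the deposited scaling. Its signals did not overlap between the cultivars.

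CSLC7 (LOC4339283, chromosome 5) had signals of 104 and 122 in Pusa 1266, against 597 and 691 in Pusa Basmati 1, and was 2.91-fold lower in Pusa 1266 (95% confidence interval 2.59 to 3.28; adjusted p = 1.68e-06). Its probe set is of a kind that may cross-hybridize, and it has no other. CSLC1 (LOC4325496, chromosome 1) was 2.09-fold lower, with signals of 151 and 204 in Pusa 1266, against 619 and 761.5 in Pusa Basmati 1. CSLC9 (LOC4334258, chromosome 3) fell by 0.69 ± 0.05 (adjusted p = 2.56e-05), with signals of 473 and 553 in Pusa 1266, against 1325 and 1525 in Pusa Basmati 1. All 3 stayed below 0 when the deposited scaling was kept, at −2.36, −1.87 and −1.45. CSLC3, dim at 0.3 and 8.5 in Pusa 1266, against 11.3 and 12.9 in Pusa Basmati 1, stood at −0.32 ± 0.25 and did not pass. Without Pusa 1266 replicate 2 it passed, at −0.65 (adjusted p = 0.0399).

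Enzymes of mixed-linkage glucan synthesis belong to the CSLF and CSLH families. CSLF6 (LOC4344719, chromosome 8), known as the main synthase of this polymer in rice, had signals of 296 and 339 in Pusa 1266, against 2045 and 2369 in Pusa Basmati 1. It was 3.99-fold lower in Pusa 1266 (95% confidence interval 3.66 to 4.35; adjusted p = 1.02e-07). Its other probe sets were dim, with signals of 1.1 to 5.8 in Pusa 1266, against 8.7 to 15.8 in Pusa Basmati 1, and were not tested. The mean over all its probe sets, dim ones included, was −0.85 (adjusted p = 6.72e-04), under 2-fold.

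CSLH1 (LOC4348359, chromosome 10), whose barley counterpart makes the same polymer, had signals of 113 and 145 in Pusa 1266, against 327 and 291 in Pusa Basmati 1. It passed as lower at −0.33 ± 0.12 (adjusted p = 0.0468), but not without Pusa 1266 replicate 1 (−0.27, 0.165) or replicate 2 (−0.39, 0.0645), nor without Pusa Basmati 1 replicate 1 (−0.17, 0.322). CSLF8 (LOC4343552, chromosome 7) did not pass, at −0.26 ± 0.21, with signals of 7.0 and 15.9 in Pusa 1266, against 22.4 and 30.5 in Pusa Basmati 1. CSLF2, the protein-coding gene beside CSLF8, had signals of 2.0 and 4.3 in Pusa 1266, against 0.6 and 0.8 in Pusa Basmati 1. CSLF7 (chromosome 10) had 2.2 and 1.7 in Pusa 1266, against 7.3 and 3.9 in Pusa Basmati 1, and neither gene was tested.

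The CSLD genes, related most closely to the cellulose synthases and known for tip growth and cell division, gave no call. CSLD2 (LOC4339895, chromosome 6) had signals of 300.2 and 312 in Pusa 1266, against 561 and 549 in Pusa Basmati 1, and stood at −0.02 ± 0.09 (95% confidence interval −0.23 to 0.19). CSLD4 (LOC107276048, chromosome 12), whose loss gives narrow leaves and dwarfed rice, stood at 0.15 ± 0.12 (−0.12 to 0.42), or −0.69 with the deposited scaling. Its signals were 100.3 and 143 in Pusa 1266, against 178 and 229 in Pusa Basmati 1. CSLD1, a gene of root hair growth in rice, and CSLD5 were not tested, with signals of 0.3 to 8.5.

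In the CSLE family, whose product is not established, CSLE2 (LOC4330583, chromosome 2) passed as lower, at −0.69 ± 0.07 (adjusted p = 1.40e-04). Signals of this probe set were 152 and 172 in Pusa 1266, against 451 and 537 in Pusa Basmati 1. The 2 further probe sets of CSLE2 did not pass, at 0.26 ± 0.14 and 0.24 ± 0.15 (−0.38 and −0.24 with the deposited scaling), and the mean over the 3 was −0.06 (adjusted p = 0.655), so the call rests on 1 of the 3 probe sets. CSLE1 was not tested, at 0.3 to 1.7.

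Other genes of wall building were set beside these families: enzymes of lignin precursors, laccases, UDP-glucose dehydrogenases (UGD), which supply sugar precursors of the matrix, and arabinogalactan and xylan genes. Of 28 genes on the array 17 were tested, 3 rose and 8 fell, beside 34.7% of all tested genes higher and 26.3% lower, and the median was −0.25. At 2-fold or more, UGD5 rose by 1.30 ± 0.06, while UGD4 fell by 1.36 ± 0.09. Further probe sets of UGD5 gave 0.55 ± 0.07 and −0.64 ± 0.13, which passed in opposite directions, and the mean over the 3 was 0.40. With the deposited scaling these further probe sets stood at −0.23 and −1.41. The phenylpropanoid genes PAL06 (−2.29 ± 0.16), 4CL4 (−1.71 ± 0.15) and 4CL5 (−1.10 ± 0.14) fell as well. A second probe set of PAL06 fell by 2.06 ± 0.14. A second probe set of 4CL4 was dim and not tested, with signals of 7.0 and 5.8 in Pusa 1266, against 7.2 and 1.4 in Pusa Basmati 1, and the mean over both was −0.70 (adjusted p = 0.00502). By their brightest probe sets, UGD5 stood at 0.54 with the deposited scaling and UGD4, PAL06, 4CL4 and 4CL5 between −2.98 and −1.71.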

How the data were processed

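Per the labels' protocols, TRIzol RNA was turned into biotin-labelled cRNA and hybridized to Affymetrix arrays. The authors deposited a linear intensity for each probe set on each array, for which the submitters' processing notes name GCOS 1.2, with background treatment and scaling not given in the sources used here. Arrays give no counts, and their number limits the precision. The 123 control probe sets were left out. The other 57258 were put on the scale log2(signal + 16) and quantile normalized, and 30029 were brighter than the array median on 2 or more arrays. These were compared in limma 3.58.1 by lmFit and trended eBayes (R 4.3.3), with Benjamini-Hochberg adjustment over all of them, after a test on simulated data. An exact permutation test of 2 arrays against 2 cannot go below p = 0.333 and was not run. Nothing says whether the replications came from separate plants, so p-values measure the spread between these samples.

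Gene names came from the array annotation and a reference gene table (assembly ASM3414082v1), both joined by gene identifier, and the array's build is not stated. Named genes are those called at 2-fold or more, the 3 brightest of each family and all in families of up to 4 tested genes. EXPA2, EXPA4, EXPA6, EXPA16, EXPA29, EXPB3, EXPB6, EXPB8, EXPB11 and CSLC3, and the untested genes other than CSLD1, CSLE1 and CSLF7, were added after their values were seen. In the list of other wall genes LOC4347540, a bHLH gene with the synonym BC1, was left out, and among floral markers a gene with the synonym MADS2. The floral list had 3 of 7 genes higher and none lower, beside 34.7% of all tested genes higher and 26.3% lower. All 3 were below 0 with the deposited scaling, where the median of the list, 0.27, became −0.50. The members and lists were chosen with earlier results of these data known. After normalization, the differences between replicates 1 and 2 in the 2 cultivars correlated with r = 0.0182 across probe sets. This shows no pairing by replicate number but cannot exclude one, and the samples were treated as unpaired. Python 3.11.15, pandas 2.3.3 and numpy 2.4.6 were used for tables, and matplotlib 3.10.9 for plots.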

Additional observations from a re-analysis of the deposited data

How the results depend on the processing

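The 11 genes called at 2-fold or more had the same direction and call under all 14 alternatives, though not always the size. Values under 1 on the log2 scale were XTH8 0.60 and CSLC2 0.85 with the deposited scaling, XTH8 0.83 with median centring, BC1L6 −0.80, CSLC1 −0.93 and CSLC2 0.995 with pseudocount 64, CSLC1 −0.97 without Pusa 1266 replicate 1 and −0.99 without Pusa Basmati 1 replicate 2, and CSLF6 −0.85 with the mean over all probe sets. Counts of calls followed the scaling: the 12 higher and 12 lower became 4 and 30 with the deposited scaling, 6 and 26 where arrays were centred on their medians, and 11 and 12 with trimmed mean scaling. The other wall genes had 3 higher and 8 lower, against 1 and 12 under the deposited scaling as under median centring. Leaving out 1 array gave 8 to 10 higher and 10 to 11 lower, and 7 of the 24 calls were lost in at least 1 such fit. With the replicate number as a block there were 12 higher and 13 lower, and EXPA2 gained a call; this block rests on a shared number only. Without the filter on low values there were 8 higher and 9 lower, and without the trend in eBayes 10 and 10. EXPA5, BC1L2, CSLA1 and CSLH1 lost their calls under both of these settings. EXPB6, EXPB8 and EXPB11 lost theirs without the filter only.

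Signs turned as follows, first for the deposited scaling, then for median centring: EXPA10 −0.76 and −0.53, EXPA16 −0.70 and −0.46, EXPA29 −0.82 and −0.59, EXPB4 −0.37 and −0.14, EXPB17 −0.75 and −0.51, EXLA3 −0.60 and −0.37, BC1L2 −0.54 and −0.31, CSLA1 −0.59 and −0.36, CSLA9 −0.26 and −0.025, and CSLD4 −0.69 and −0.45. EXPB11 turned with the deposited scaling only (−0.064). With trimmed mean scaling EXPA29 became −0.082 and EXPA7 0.090, and EXPA7 became 0.047 with the mean over its probe sets. Leaving out 1 array gave ranges across 0 for EXPA7 (−0.14 to 0.024), EXPB17 (−0.080 to 0.12), EXPB3 (−0.12 to 0.10), EXLA1 (−0.32 to 0.017), CSLC3 (−0.65 to 0.023) and CSLD2 (−0.12 to 0.077), none of them called. The cause of the remaining shifts was not tested. Under the deposited scaling the arrays kept their own brightness, and the median of all genes was −0.62. Genes with signals near the added constant of 16 have no fixed size of difference.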
